A study of Mus musculus with 9 samples.

Results

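Protocadherins are cell-surface proteins of the cadherin superfamily, and their genes were examined here as every protein-coding gene whose mouse symbol begins with Pcdh. Of 36 such genes in the annotation, 35 reached 1 CPM in 1 or more samples, out of 15069 genes that passed the same filter. They comprised 2 Pcdha entries, 20 Pcdhb genes, 1 Pcdhg entry and 12 non-clustered genes. CPM is the read count of a gene relative to all gene reads of the sample. RNA bound to ribosomes of parvalbumin interneurons (PV INs) was collected from 9 samples of PV-Cre; Rpl22HA mice, which carry an HA-tagged ribosomal protein L22 only in cells that express Cre under the parvalbumin promoter. Lentivirus was injected into the dentate gyrus (DG), carrying a non-targeting hairpin in 5 samples (shNT) or a hairpin against Ablim3 in 4 samples (shRNA). The mice were 2 months old, both sexes were used, and CA3 and CA2 were dissected 2 weeks after injection, with 6 animals pooled for each sample. The comparison was designed to contrast PV INs in which excitatory input from the DG had been left as it was with PV INs in which loss of Ablim3 from the DG had altered that input.

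Clustered protocadherins lie side by side in the alpha, beta and gamma arrays. In the alpha and gamma arrays each variable exon, with its own promoter, is spliced to constant exons shared across the array, whereas each beta gene is a single exon of its own. A neuron uses only some of the promoters, and the combination of isoforms on its surface lets neurites of the same cell recognise each other. CTCF and cohesin join the chosen promoters to distant enhancers. Non-clustered protocadherins lie apart in the genome, bind mostly their own kind across contacts, and act in axon outgrowth, synapse formation and synapse removal.

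Pcdh20, the only member that passed the main test described below, lies on the minus strand of chromosome 14 (mm9, 88864554 to 88871203). Pcdh8, Pcdh17 and Pcdh9 lie on the same chromosome in that build, at 80166587 to 80171119, 84843370 to 84936867 and 93414731 to 94287951. The 250 bases before the RefSeq start of Pcdh20 and of its neighbours Pcdh8 and Pcdh17, which did not pass the test, are printed to show how their promoters differ. They are from RefSeq on GRCm38.p6, at chr14:88471397-88471646 (minus strand), chr14:79771313-79771562 (minus strand) and chr14:84443313-84443562 (plus strand), each read 5′ to 3′ toward the gene. Capitals mark CCAAT, the box bound by NF-Y, and CGCT, a motif known from clustered protocadherin promoters, on either strand, and in Pcdh20 a match of each adjoins the other without overlap.
Pcdh20: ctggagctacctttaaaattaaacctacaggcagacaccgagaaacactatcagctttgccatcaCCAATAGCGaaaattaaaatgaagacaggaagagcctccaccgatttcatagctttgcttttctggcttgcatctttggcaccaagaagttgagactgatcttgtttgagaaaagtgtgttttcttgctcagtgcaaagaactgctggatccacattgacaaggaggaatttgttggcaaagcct
Pcdh8: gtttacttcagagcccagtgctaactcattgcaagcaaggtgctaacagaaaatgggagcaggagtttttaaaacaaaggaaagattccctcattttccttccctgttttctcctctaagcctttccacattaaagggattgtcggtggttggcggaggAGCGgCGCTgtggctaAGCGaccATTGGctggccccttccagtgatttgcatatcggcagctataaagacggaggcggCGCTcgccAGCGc
Pcdh17: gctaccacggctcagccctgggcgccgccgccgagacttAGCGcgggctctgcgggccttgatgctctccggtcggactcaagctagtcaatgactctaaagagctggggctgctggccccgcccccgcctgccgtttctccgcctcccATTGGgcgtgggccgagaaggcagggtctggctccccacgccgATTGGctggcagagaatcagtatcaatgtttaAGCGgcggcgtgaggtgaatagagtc
The Pcdh20 sequence was 42.4% G or C with 3 CpG dinucleotides. That of Pcdh8 was 51.2% G or C with 11 CpG, and that of Pcdh17 was 64.8% with 21 CpG. Across the 32851 promoters examined, the medians were 52.4% G or C and 6 CpG, and 16.9% had a lower G or C content than Pcdh20. Promoters were found for 9 of the 12 non-clustered members, and 8 of these 9 held CCAAT, against 33.8% of all promoters. CGCT, which holds a CpG, was in 9 of 9, against 55.7% of all promoters. G or C content of the 9 ran from 42.4% in Pcdh20 to 69.2% in Pcdh19, and CpG counts from 3 in Pcdh20 to 23 in Pcdh18. The part of base composition in these shares was not tested, and no promoter of a clustered gene was available. TATAAA was in 2 of 9, against 12.4% of all promoters. The short site TGACG of the cAMP response element was in 2 of 9, against 17.8% of all, and the palindrome TGACGTCA, which contains it, was in 0 of 9, against 1.55% of all. These are matches of letters in a window and not known binding sites. No stretch just past the RefSeq start of Pcdh20 was found in its mm9 transcript, unlike for Pcdh8 and Pcdh17. The same held for Pcdh9, which is among the 9 promoters counted. Why these stretches did not match was not tested.

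The annotation used with these counts (mm9) sets what can be told apart. RefSeq lists 14 protein-coding Pcdha genes, but here nearly the whole array is 1 entry named Pcdha11 (ENSMUSG00000007440, chromosome 18, 37089939 to 37347311, plus strand, 10 transcripts), with Pcdha3 kept separate inside it. The 21 Pcdhg genes of RefSeq are likewise 1 entry named Pcdhgc5 (ENSMUSG00000023036, chromosome 18, 37833989 to 38001527, plus strand, 10 transcripts). These are called the alpha and gamma entries below, and no value for a single alpha or gamma isoform, the C-type isoforms included, can be given. An antisense gene shares 11.3% of the exon bases of the alpha entry and 5.68% of those of the gamma entry, and the counting did not use strand, so levels per length were taken over exon bases that belong to no other gene. Of 22 Pcdhb genes in RefSeq, Pcdhb1 did not reach 1 CPM in any sample, with counts of 0, 0, 0, 0 and 1 in shNT and 0, 0, 4 and 2 in shRNA. Pcdhb20 is annotated as a pseudogene here and was not a member. It stood at 8.08 ± 1.72 CPM in shNT (SD, n = 5) and 8.56 ± 2.63 CPM in shRNA (SD, n = 4).

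The samples held 18281719 to 34578837 gene counts. The lowest depth was that of shRNA 4. Reads outside annotated exons made up 27.2% of uniquely aligned reads in shRNA 4, 19.8% in shRNA 1 and 18.6% in shNT 2, against 9.76% to 12.5% in the other 6 samples. Summed astrocyte markers stood at 5459 CPM in shRNA 4 and at 1071 to 1661 CPM in the other 8 samples. Summed PV IN markers stood at 2980 CPM in shRNA 4 and at 5047 to 8261 CPM in the others. Ablim3 itself stood at 16.9 ± 5.16 CPM in shNT (SD, n = 5) and at 18.5 ± 3.42 CPM in shRNA (SD, n = 4), with an FDR of 0.701 by edgeR. The hairpin was delivered to the DG and the RNA came from PV INs of CA3 and CA2, so this level does not check the knockdown.

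Levels of the protocadherin genes spanned a wide range in the collected RNA. In shNT that RNA held PV IN markers at a sum of 5047 to 8261 CPM. It also held markers of oligodendrocytes (780 to 2422 CPM), astrocytes (1071 to 1512 CPM) and pyramidal neurons (577 to 1439 CPM). The part of each cell type in the levels below was not tested. Per kilobase (kb) of countable exon, Pcdh9 stood highest, at 43.5 ± 10.4 CPM per kb in shNT (SD, n = 5), followed by Pcdh8 at 23.9 ± 6.64 and Pcdh7 at 15.4 ± 3.00 CPM per kb. Pcdh7 and Pcdh9 belong to the delta-1 group of protocadherins, and Pcdh8 (arcadlin) is a delta-2 member known as a product of neuronal activity that drives internalisation of N-cadherin. The alpha entry followed at 11.1 ± 3.47 CPM per kb, then Pcdh17 at 8.03 ± 1.41, Pcdh19 at 7.24 ± 1.37, the gamma entry at 6.91 ± 1.97 and Pcdh20 at 4.53 ± 1.42 CPM per kb. The neighbours from Pcdh17 to the gamma entry differed by less than their SD. In shRNA samples Pcdh20 stood at 11.5 CPM per kb, above Pcdh17, Pcdh19 and the gamma entry, whose shRNA means were 8.67, 8.28 and 9.63 CPM per kb. Among Pcdhb genes the highest were Pcdhb9, Pcdhb17 and Pcdhb12, at 4.07 ± 1.79, 3.08 ± 0.543 and 2.69 ± 0.980 CPM per kb in shNT. The lowest member was Pcdh12, a gene known from endothelial cells, at 0.125 ± 0.0602 CPM per kb. Since the alpha and gamma entries sum many isoforms over many variable exons, their level per kb is not that of any 1 isoform.

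**Figure D1:**
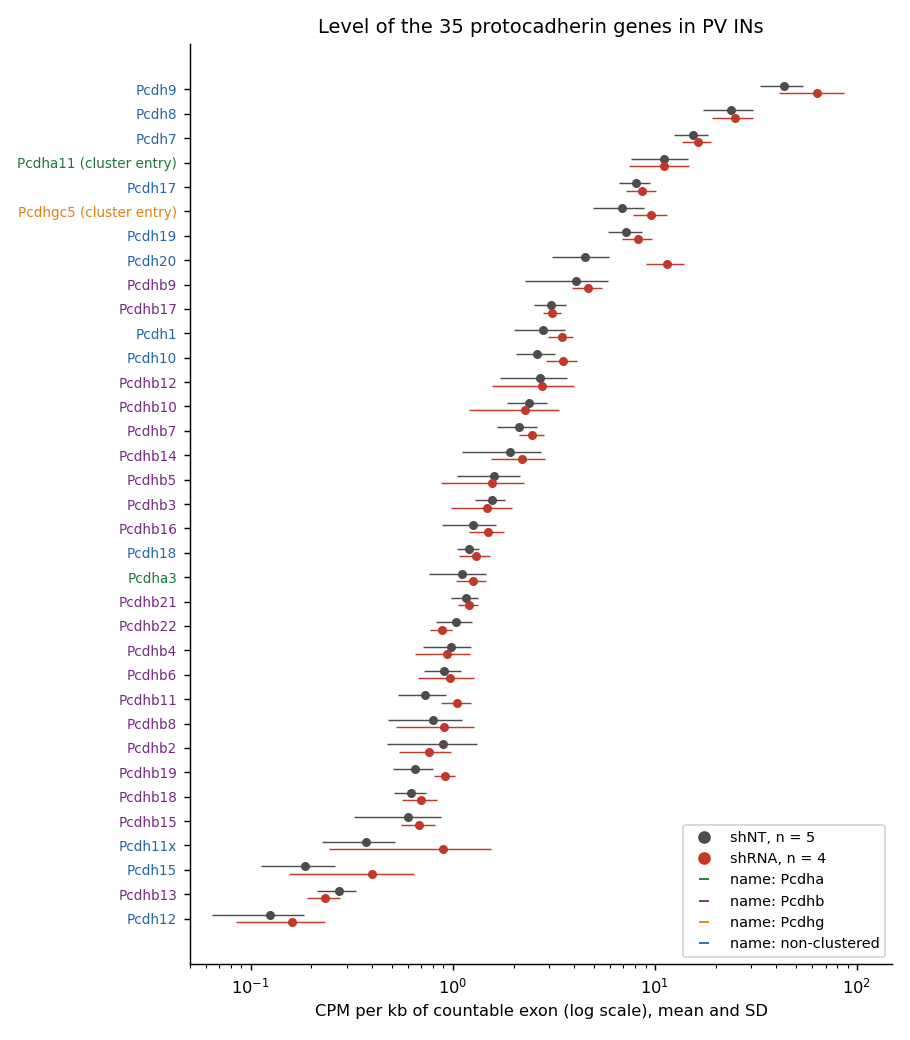
Mean level of each member in CPM per kb of countable exon on a log axis, with SD, for shNT (grey, n = 5) and shRNA (red, n = 4). Names are coloured by group, and Pcdh20 is the member whose means lie farthest apart relative to their SD, at 4.53 and 11.5 CPM per kb.

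Pcdh20 was higher in shRNA samples. It stood at 28.7, 20.7, 34.2, 18.0 and 17.0 CPM in shNT samples 1 to 5 and at 42.6, 59.1, 71.7 and 67.1 CPM in shRNA samples 1 to 4. The groups did not overlap. The mean was 23.7 ± 7.46 CPM in shNT (SD, n = 5) and 60.1 ± 12.8 CPM in shRNA (SD, n = 4), or 2.53-fold higher in the fit. This log2 fold change of 1.34 had a standard error (SE) of 0.23 and an FDR of 0.0403 by edgeR's quasi-likelihood test. A gene was called when its FDR over all genes tested was below 0.05 and its change was at least 1.5-fold. An exact two-sided permutation test on log2 CPM, not adjusted, gave p = 0.00794, the smallest that 5 against 4 samples allow. That value follows closely from the groups not overlapping and is not separate support. Pcdh20 was the 1 member of 35 called, 2.86% of them, where 1.75% of all genes tested were called (264 of 15069) and 1.74% were called higher in shRNA. It was also the 1 member whose groups did not overlap, where 15.6% of all genes had groups that did not overlap in either direction, 8.97% with shRNA higher and 6.68% with shRNA lower. Besides Pcdh20, only Pcdh15 and Pcdh11x had an FDR below 0.1, which makes 3 of 35 members, where 23.2% of all genes tested had one. With shRNA 4 left out it remained called, at 1.27 (FDR 0.0445), and with both shNT 2 and shRNA 4 left out, at 1.25 (FDR 0.0288).

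The call on Pcdh20 sat close to the threshold, as did each call of the main test, whose lowest FDR for any gene was 0.0403. It was lost when shNT 3, 4 or 5 was left out (FDR 0.0744, 0.155 and 0.169) and when shRNA 1 or 3 was left out (FDR 0.0860 and 0.121), and in each of these fits 0 genes of the whole table were called by edgeR, while 3 to 5 members had an unadjusted p below 0.05, where 23.1% to 30.7% of all genes had one. The log2 fold change of Pcdh20 was 1.15 to 1.45 over all 9 omissions. Sample names fall into a set numbered 31 (shNT 1 to 3 and shRNA 1 to 3) and a set numbered 32 (shNT 4 and 5 and shRNA 4). Within set 31 the log2 fold change was 1.02 and was not called (FDR 0.263), and within set 32 the 1 shRNA sample, at 67.1 CPM, lay above both shNT samples, at 18.0 and 17.0 CPM. With the set as a block the call held (1.33, FDR 0.0266). It was lost when counts were scaled by library size only (FDR 0.0708) or by the upper quartile (FDR 0.0628), with the share of reads outside exons as covariate (FDR 0.0785) and in a test against 1.5-fold (FDR 0.270). Marker sums of CA3 or CA2 pyramidal neurons moved with the same split, at 577 to 1439 CPM in shNT and 1510 to 1905 CPM in shRNA, as did those of oligodendrocyte precursors, at 65.4 to 98.6 and 107 to 137 CPM. Of the 8 pyramidal markers 2 were called and of the 7 precursor markers 3, where 1.75% of all genes were called, and each of these 5 was higher in shRNA. The precursor marker C1ql1 had a log2 fold change of -0.35 (FDR 0.285). Their part in the level of Pcdh20 was not tested. In pooled tissue a change in RNA per cell and a change in the cells captured cannot be told apart.

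Pcdh15 and Pcdh11x had fold changes almost as large but were not called. Pcdh15 encodes the large cadherin known from the tip links of hair cells, and Pcdh11x is an X-linked delta-1 protocadherin. Pcdh15 stood at 3.27, 6.75, 3.05, 2.98 and 4.02 CPM in shNT and at 7.88, 4.90, 5.33 and 16.3 CPM in shRNA, with a log2 fold change of 1.10 (SE 0.38, FDR 0.0837). Its 3 highest values were those of shRNA 4, shRNA 1 and shNT 2, the same 3 samples, in the same order, that had the largest share of reads outside exons. With that share as a covariate its log2 fold change was 0.31 (FDR 0.235). Without shRNA 4 it was 0.56 (FDR 0.284). Pcdh11x stood at 4.91, 3.63, 4.22, 1.71 and 2.35 CPM in shNT and at 3.66, 5.65, 6.33 and 16.8 CPM in shRNA, with a log2 fold change of 1.26 (SE 0.44, FDR 0.0850). The groups overlapped, and shRNA 4 held more than the sum of any pair of other shRNA samples. Without shRNA 4 it was 0.61 (FDR 0.264). Both genes were called by edgeR's exact and likelihood ratio tests, by DESeq2 and by limma voom, which called 14.6%, 14.8%, 15.7% and 19.4% of all genes tested. These genes span 1550 and 620 kb, mostly intron.

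Pcdh9 and Pcdh10 were higher on average without passing the test. Pcdh9 stood at 179, 118, 216, 162 and 133 CPM in shNT and at 157, 227, 209 and 354 CPM in shRNA. Sample shRNA 4 again stood apart, and the log2 fold change fell from 0.55 (SE 0.25, FDR 0.139) to 0.29 (FDR 0.344) without it. Pcdh10, a delta-2 member known for its part in synapse elimination, stood at 37.9, 27.6, 27.9, 22.9 and 23.6 CPM in shNT and at 31.2, 38.3, 33.7 and 46.1 CPM in shRNA. Its groups overlapped through shNT 1, and its log2 fold change was 0.42 (SE 0.18, FDR 0.130). Pcdh1 had a log2 fold change of 0.30 (SE 0.20, FDR 0.285), with 23.7 ± 6.58 CPM in shNT (SD, n = 5) and 29.3 ± 4.12 CPM in shRNA (SD, n = 4).

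**Figure D2:**
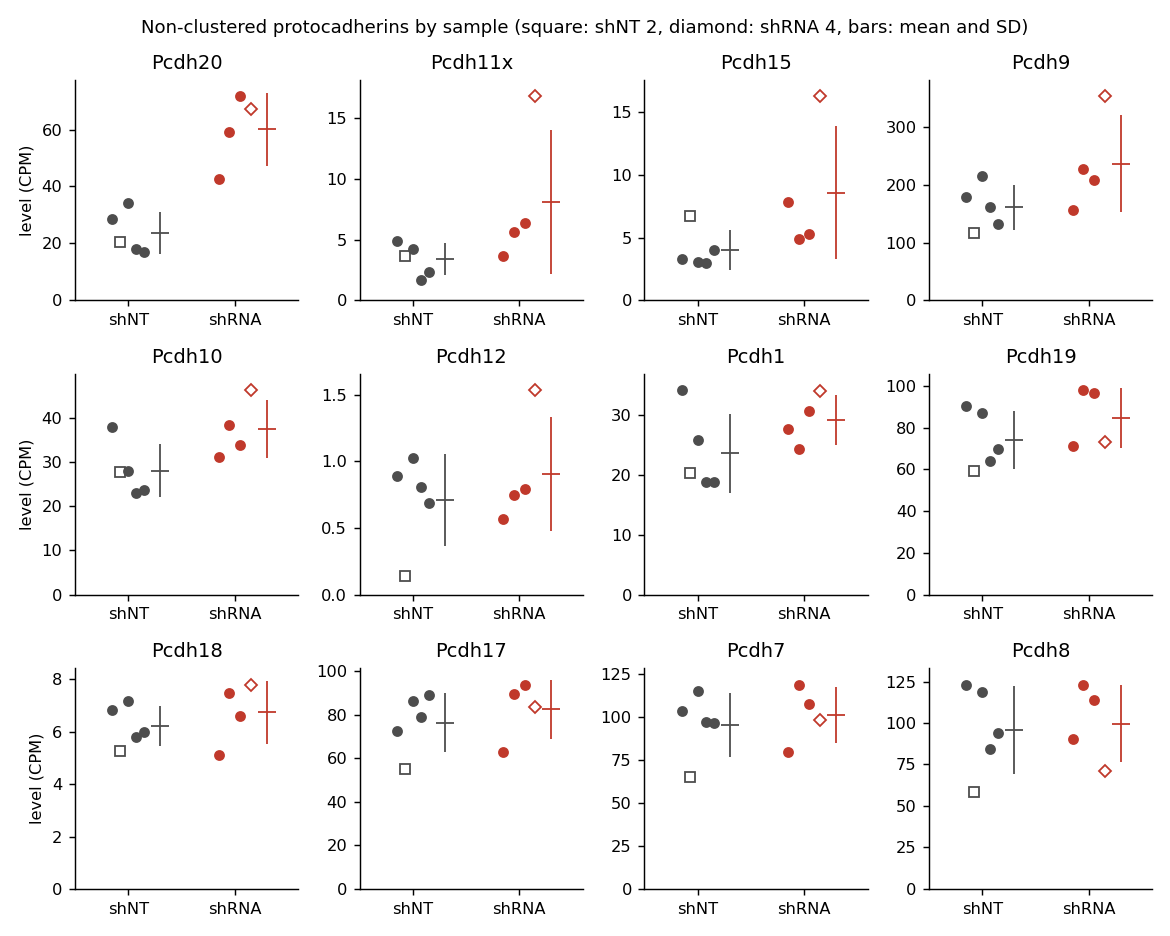
Level in CPM of each of the 12 non-clustered members in every sample, on axes that start at 0, with the mean and SD beside the points. Squares mark shNT 2 and diamonds shRNA 4. Pcdh20 has no overlap between the groups, while Pcdh11x, Pcdh15 and Pcdh9 each have shRNA 4 well above the other shRNA samples.

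The other non-clustered genes did not pass the test either. Pcdh8 stood at 123, 58.2, 119, 84.4 and 93.8 CPM in shNT and at 90.3, 123, 114 and 71.3 CPM in shRNA. Its log2 fold change was 0.058 (SE 0.23, FDR 0.875), and the lowest values were those of shNT 2 and shRNA 4. Pcdh7 stood at 104, 65.2, 115, 97.3 and 96.5 CPM in shNT and at 80.0, 119, 108 and 98.1 CPM in shRNA, with a log2 fold change of 0.082 (SE 0.18, FDR 0.762). Pcdh17, which recruits the actin regulator WAVE to axon contacts, and Pcdh19, an X-linked gene of an epilepsy that mostly affects females, had log2 fold changes of 0.11 (SE 0.17) and 0.19 (SE 0.17). Their means were 76.4 and 74.1 CPM in shNT and 82.5 and 84.7 CPM in shRNA. Pcdh18 had 0.12 (SE 0.19). Pcdh12 averaged 0.711 CPM in shNT and 0.909 CPM in shRNA, too low to follow. Its highest value, 1.53 CPM, came from shRNA 4, where summed endothelial markers stood at 849 CPM against 65.7 to 322 CPM in the other samples. In shNT 2, where that sum was 322 CPM, Pcdh12 had its lowest value, 0.138 CPM. In shNT 3, where the sum was 104 CPM, Pcdh12 stood at 1.03 CPM. The part of endothelial cells in its level was not tested.

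All 12 non-clustered genes had a positive log2 fold change, with a median of 0.32, where 57.9% of all genes were positive with a median of 0.11. Of 12 PV IN markers 0 were positive, with a median of -0.35 and Pvalb at -0.92 (FDR 0.0678). Positive were 10 of 10 astrocyte markers (median 1.35), 9 of 9 oligodendrocyte markers (median 0.77) and 8 of 8 pyramidal markers (median 0.75). So were 9 of 10 endothelial markers (median 0.46) and 7 of 8 DG granule cell markers (median 0.66). The same held for 6 of 7 oligodendrocyte precursor markers (median 1.01) and 5 of 8 microglia markers (median 0.49). Summed astrocyte markers stood at 5459 CPM in shRNA 4, 1410 to 1661 CPM in other shRNA samples and 1071 to 1512 CPM in shNT. The part of these cell types in the levels of the non-clustered genes was not tested. The summed level was 685, 440, 727, 558 and 555 CPM in shNT and 581, 797, 776 and 870 CPM in shRNA. These groups overlapped, and averaged 593 ± 115 CPM in shNT (SD, n = 5) and 756 ± 123 CPM in shRNA (SD, n = 4). Within set 31, where Pcdh12 did not pass the filter, 10 were positive and Pcdh18 was negative, with a median of 0.14. After subtraction of a trend of log2 fold change with gene length across all genes the median was 0.039, and after subtraction of a trend with exon length it was -0.19. Pcdh20 was at 1.28 and 1.00 on these corrected scales.

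**Figure D3:**
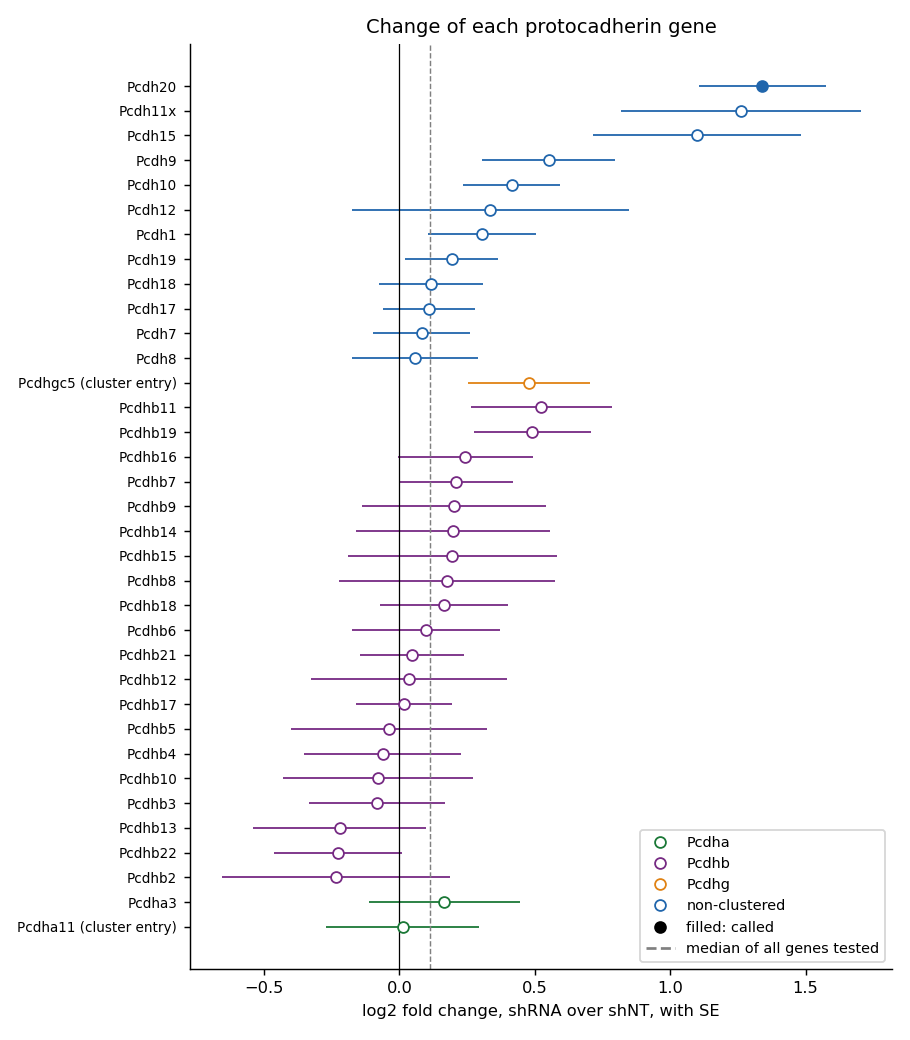
Log2 fold change of shRNA over shNT with its SE for each of the 35 members, arranged by group. The filled point is the called gene, Pcdh20 at 1.34, and the dashed line is the median of all genes tested at 0.11.

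The alpha entry did not pass the test. It stood at 287, 149, 343, 236 and 196 CPM in shNT and at 219, 321, 295 and 142 CPM in shRNA, averaging 242 ± 76.1 CPM in shNT (SD, n = 5) and 244 ± 80.8 CPM in shRNA (SD, n = 4). The lowest sample of each group was shNT 2 and shRNA 4. Its log2 fold change was 0.012 (SE 0.28, FDR 0.979). Pcdha3, the alpha gene counted on its own, stood at 2.92, 1.70, 4.05, 2.42 and 2.51 CPM in shNT and at 2.79, 3.70, 3.22 and 2.53 CPM in shRNA, with a log2 fold change of 0.17 (SE 0.28, FDR 0.689). The groups overlapped for both entries.

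The gamma entry was higher on average in shRNA without passing the test. It stood at 241, 128, 248, 175 and 153 CPM in shNT and at 190, 272, 287 and 305 CPM in shRNA. Its mean was 189 ± 53.8 CPM in shNT (SD, n = 5) and 263 ± 50.6 CPM in shRNA (SD, n = 4), and the groups overlapped in 1 shRNA sample, shRNA 1. The log2 fold change was 0.48 (SE 0.23, FDR 0.158), and an exact two-sided permutation test, not adjusted, gave p = 0.0952. Without shRNA 4 the log2 fold change was 0.40 (FDR 0.264), and within set 31 it was 0.25 (FDR 0.733). The entry spans 168 kb, and after subtraction of the trend with gene length across all genes its log2 fold change was -0.0026.

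The gamma and alpha entries ran together in all samples but 1. The ratio of gamma counts to alpha counts was 0.841, 0.858, 0.724, 0.740 and 0.780 in shNT and 0.867, 0.847 and 0.972 in shRNA samples 1 to 3. In shRNA 4 it was 2.15, since the gamma entry there was the highest of all samples and the alpha entry the lowest. That sample also held the astrocyte, endothelial and PV IN marker sums given above, and their part in the ratio was not tested.

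**Figure D4:**
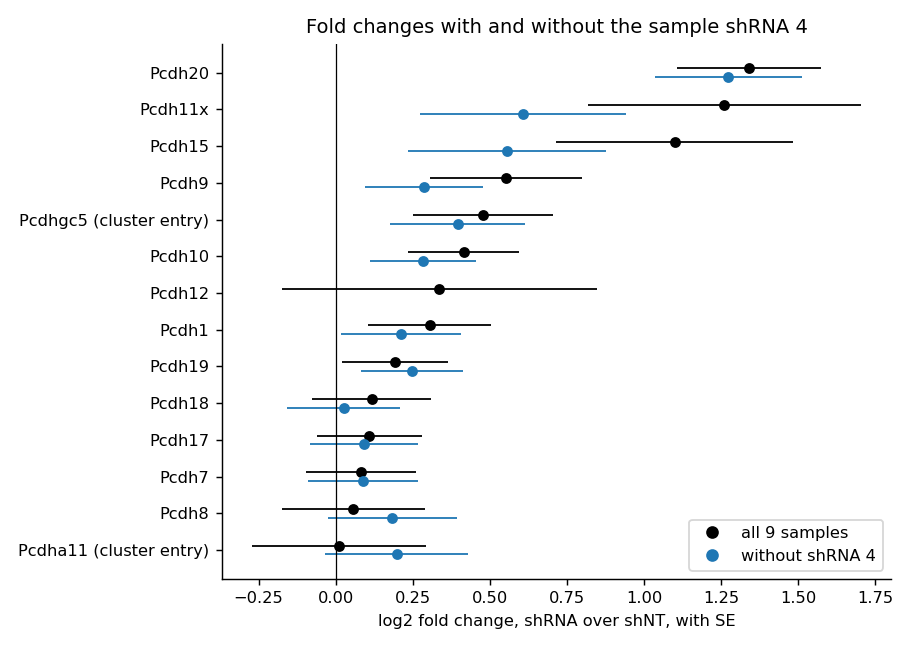
Log2 fold change of shRNA over shNT with its SE for the alpha and gamma entries and the non-clustered members, over all 9 samples (black) and with shRNA 4 left out (blue). Pcdh12 has no blue point, since it did not pass the CPM filter there. Pcdh11x, Pcdh15 and Pcdh9 shift most, to 0.61, 0.56 and 0.29, while Pcdh20 stays at 1.27.

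None of the 20 Pcdhb genes was called, and 1 of them, Pcdhb19, had an unadjusted p below 0.05, where 34.1% of all genes tested had one. None was called by edgeR's other tests, DESeq2 or limma voom either. Under limma voom 2 of them, Pcdhb11 (0.56, FDR 0.0335) and Pcdhb19 (0.51, FDR 0.0220), had an FDR below 0.05 but were below 1.5-fold, as were the gamma entry (0.56, FDR 0.0129), Pcdh10 (0.41, FDR 0.0237) and Pcdh19 (0.39, FDR 0.0266), where 38.7% of all genes had such an FDR. The lowest log2 fold change among them was -0.24 and the highest 0.52, and the median was 0.072, below the median of all genes, and 13 were positive and 7 negative. The groups overlapped for each of the 20. Pcdhb11 stood at 3.45, 2.07, 3.19, 2.67 and 1.82 CPM in shNT and at 4.42, 4.09, 3.75 and 2.93 CPM in shRNA, with a log2 fold change of 0.52 (SE 0.26, FDR 0.176). Pcdhb19 stood at 5.83, 3.08, 4.87, 4.34 and 5.14 CPM in shNT and at 5.45, 7.36, 6.65 and 6.77 CPM in shRNA, with a log2 fold change of 0.49 (SE 0.22, FDR 0.137). In both genes 3 of the 4 shRNA samples lay above every shNT sample. At the other end, Pcdhb2 stood at 3.73, 0.688, 3.26, 2.57 and 2.16 CPM in shNT and at 1.56, 2.70, 2.58 and 1.62 CPM in shRNA (log2 fold change -0.24, SE 0.42). Pcdhb22 stood at 2.88, 4.13, 2.71, 3.53 and 2.60 CPM in shNT and at 2.29, 3.13, 2.64 and 2.75 CPM in shRNA (log2 fold change -0.23, SE 0.24). These differences were within about 1 SE of 0.

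The most abundant Pcdhb genes had small fold changes. Pcdhb9 stood at 14.5, 4.09, 16.5, 17.2 and 9.82 CPM in shNT and at 11.3, 15.5, 16.8 and 13.6 CPM in shRNA, with a log2 fold change of 0.20 (SE 0.34). Pcdhb17 stood at 11.5, 7.02, 10.9, 10.9 and 10.01 CPM in shNT and at 9.37, 11.2, 10.9 and 9.25 CPM in shRNA, with a log2 fold change of 0.018 (SE 0.18). Pcdhb12 stood at 9.03, 3.67, 11.8, 9.03 and 7.34 CPM in shNT and at 6.85, 11.9, 10.9 and 3.97 CPM in shRNA, with a log2 fold change of 0.037 (SE 0.36). Sample shNT 2 was the lowest shNT sample for each of these genes. Within the beta array, Pcdhb9 took 13.2 ± 3.64% of the summed CPM per kb in shNT (SD, n = 5) and 15.2 ± 2.03% in shRNA (SD, n = 4), and Pcdhb17 took 10.7 ± 1.16% and 10.2 ± 1.17%.

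The summed Pcdhb level was 118, 63.1, 125, 112 and 95.6 CPM in shNT and 92.6, 135, 124 and 90.1 CPM in shRNA. It averaged 103 ± 24.5 CPM in shNT (SD, n = 5) and 111 ± 22.6 CPM in shRNA (SD, n = 4). Its 3 lowest samples were shNT 2, shRNA 4 and shRNA 1, the samples with the largest share of reads outside exons. With that share as a covariate the median log2 fold change of the 20 genes was 0.43, and none was called. In that fit edgeR called 0 genes of the whole table, and 10 of the 35 members had an unadjusted p below 0.05, where 29.7% of all genes had one.

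**Figure D5:**
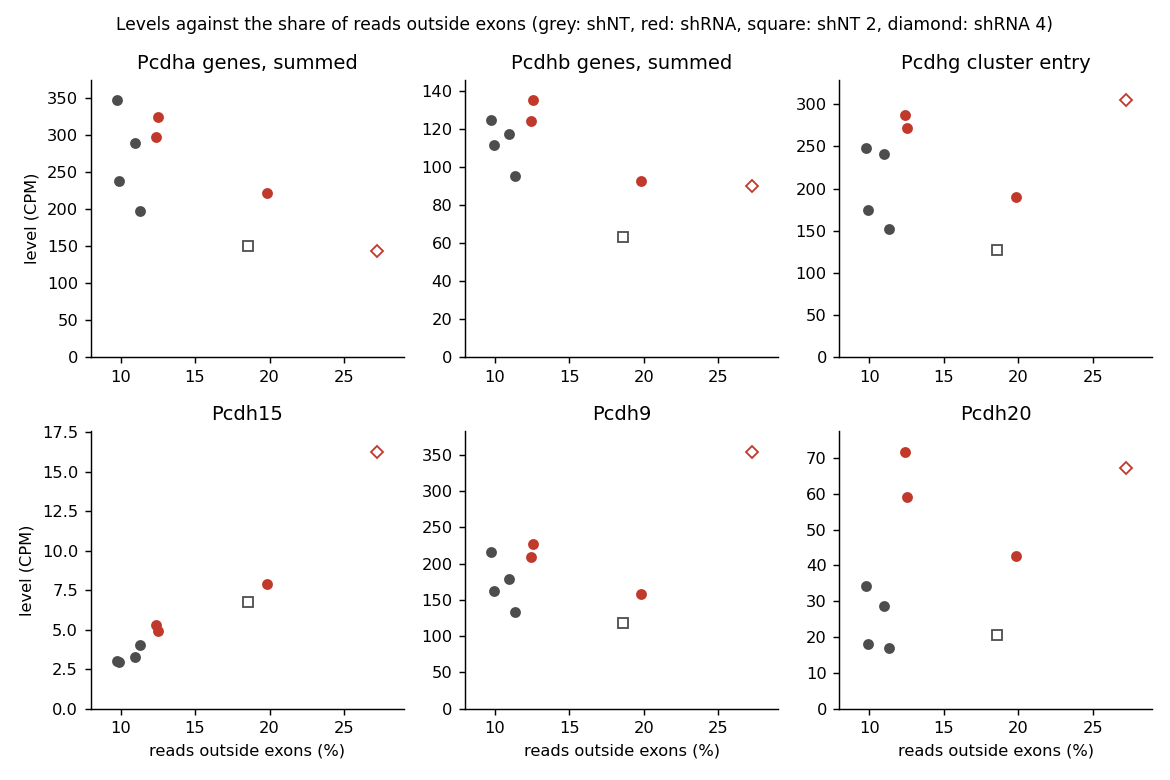
Level in CPM of the summed Pcdha and Pcdhb genes, the gamma entry, Pcdh15, Pcdh9 and Pcdh20 against the percentage of reads outside exons in each sample (grey, shNT; red, shRNA; square, shNT 2; diamond, shRNA 4). Pcdh15 is highest and the Pcdhb sum lowest in the 3 samples at 18.6% to 27.2%, while Pcdh20 keeps its groups apart.

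Genes that regulate protocadherins or act with them were examined as lists of known factors. In the list of chromatin and looping factors 1 of 16 was called, where 1.75% of all genes were, and the median log2 fold change was 0.56, where that of all genes was 0.11. Setdb1, a histone H3 lysine 9 methyltransferase known to act on the clustered array, rose from 17.4 ± 3.72 CPM in shNT (SD, n = 5) to 31.8 ± 2.82 CPM in shRNA (SD, n = 4), or by 0.87 on the log2 scale (SE 0.17, FDR 0.0403). The abundant cohesin loader Nipbl and the cohesin subunit Smc1a had log2 fold changes of 1.96 (SE 0.63, FDR 0.0738) and 0.11 (SE 0.18, FDR 0.676).

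Of 12 cytoplasmic partners 1 was called, again beside 1.75% of all genes, and the median log2 fold change was 0.36. Ptk2b, the kinase PYK2 that clustered protocadherins inhibit, rose from 136 ± 45.2 CPM in shNT (SD, n = 5) to 294 ± 38.3 CPM in shRNA (SD, n = 4), with a log2 fold change of 1.12 (SE 0.24, FDR 0.0467). Ctnnb1, which encodes beta-catenin, had 0.31 (SE 0.21, FDR 0.305). Of 11 tested genes of the WAVE complex and Rac group 2 were called, with a median of 0.34. Wasf1, which encodes WAVE1, rose from 148 to 252 CPM (log2 fold change 0.77, SE 0.15, FDR 0.0403), and Cyfip1 rose from 35.3 to 81.4 CPM (1.20, SE 0.25, FDR 0.0424). The more abundant Cyfip2 and Nckap1 of the same complex had 0.24 (FDR 0.573) and 0.51 (FDR 0.187). Of 29 tested genes of other cadherins, with a median of 0.43, 1 was called, Cdh8, a classical cadherin, which rose from 20.7 to 34.2 CPM (0.73, SE 0.16, FDR 0.0443). The most abundant of them, Clstn1 and Clstn3, had 0.12 and 0.065. In no list was a gene called lower in shRNA, where 0.0133% of all genes tested were, or 2 genes. Negative log2 fold changes were held by 0 of 16 chromatin and looping factors and 3 of 12 partners. They were held by 3 of 11 WAVE and Rac genes and 3 of 29 other cadherins, where 57.9% of all genes were positive. Groups did not overlap for 2 partners with shRNA lower and 4 with shRNA higher, where 6.68% and 8.97% of all genes had such groups. With shNT 3, 4 or 5 or shRNA 1 or 3 left out, 0 genes of the whole table were called, those named from the lists included. The same held with library size only, upper quartile scaling and the covariate for reads outside exons. Pyramidal marker sums were also higher in shRNA, at 577 to 1439 CPM in shNT and 1510 to 1905 CPM in shRNA. Their part in the levels of the listed genes was not tested. Median gene length was 60.2 kb for chromatin and looping factors, 51.6 kb for partners, 71.5 kb for WAVE and Rac genes and 135 kb for other cadherins. For all genes tested it was 22.8 kb. The trend of log2 fold change with gene length, subtracted above for the non-clustered genes, was not subtracted from the medians of these lists.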

How the data were processed

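Ribosome-associated RNA of 9 samples (5 shNT, 4 shRNA), each pooled from 6 mice, was purified by anti-HA immunoprecipitation and sequenced as 50-base reads by the study. Per its methods and the submitters' processing notes, reads were aligned with STAR (version not given in the sources used here) to mm9, and the authors deposited raw counts per Ensembl gene from HTSeq 0.6.0, without strand and without normalization. Of 37620 identifiers, 37205 were named from the matching mm9 annotation.

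Tests used edgeR 4.0.16 and limma 3.58.1, run in R 4.3.3. A gene was kept where any sample reached 1 CPM (15069 genes), counts were scaled by TMM, and the quasi-likelihood test was fitted over all kept genes with group as the only term. Benjamini-Hochberg FDR was taken over all kept genes, and a call required an FDR under 0.05 and a 1.5-fold change. The fitting step was tested on simulated counts. The rows for reads outside features, ambiguous reads and reads not uniquely aligned were left out of library sizes. Ambiguous reads were 1.36% to 1.78%, reads outside exons 9.76% to 27.2% and reads not uniquely aligned 8.24% to 14.4%. Depths were 18281719 to 34578837 gene counts. A gene's level is its TMM-scaled CPM, and levels per kb used exon bases that belong to no other gene. Nothing says whether the samples came from separate days or cohorts, so p-values measure the spread between these pooled samples.

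The members and gene lists were chosen with earlier results of these data known. Members named with every value were those called, the 3 with the highest level per kb and the 2 with the highest and the 2 with the lowest fold change in each group, any C-type gene and those whose values stood apart. Pcdh10, with every value, and Pcdh1, Pcdh12, Pcdh17, Pcdh18 and Pcdh19, more briefly, were added after their values were seen. From each list the called genes and the 2 most abundant were named. A further list of genes is not reported here. Other settings tried were DESeq2 1.42.0, limma voom, the exact and likelihood ratio tests of edgeR, other scalings, filters and tests against 1.5-fold, blocks for the replicate number and the name set, a covariate for reads outside exons, subtraction of length trends, and omission of each sample. The older form of edgeR's quasi-likelihood test was the main one, since it is this version's default. The newer form, and omission of shNT 2 and shRNA 4 together, were added after the data were seen. Promoters came from RefSeq (GRCm38.p6), and protein sequences were not analysed here.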

Additional observations from a re-analysis of the deposited data

Results flagged for a closer look

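Among the 76 sets of values searched (the members, the summed levels and the gamma to alpha ratio, in each group), 2 held a sample far from the others by Dixon's test, where chance gives about 1 in 20, or 3.8. Pcdh15 stood at 6.75 CPM in shNT 2, against 2.98 to 4.02 CPM in the other shNT samples. The ratio of counts of the gamma entry to the alpha entry was 2.15 in shRNA 4, against 0.847 to 0.972 in the other shRNA samples.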

How the results depend on the processing

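The number of members called, 1 in the reported fit, was 3 (Pcdh20, Pcdh15 and Pcdh11x) under edgeR's exact test, its likelihood ratio test, DESeq2 and limma voom. It was 0 with library size only (Pcdh20 FDR 0.0708), upper quartile scaling (FDR 0.0628), the test against 1.5-fold, the replicate block, set 31 only and the share outside exons as a covariate (Pcdh20 1.41, FDR 0.0785), and 0 to 1 over omissions of 1 sample. The robust and newer forms of the quasi-likelihood test, DESeq2's size factors, both filters, no minimum fold and the name set as a block left it at 1, with Pcdh20 as the called member. In the whole table the number of genes called, 264 in the reported fit, was 2193 to 2919 under the other tests, 0 with library size only, upper quartile scaling, the test against 1.5-fold, set 31 only and the covariate, 29 with the replicate block, and 0 to 1417 over omissions. The causes were not tested. The planned older form of the quasi-likelihood test is the reported fit itself.

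Same-numbered samples of the groups did not deviate together (correlations of -0.27, -0.64, 0.49 and -0.18 over the 4 numbers), so the numbers were not taken as pairs. With the replicate block 0 members were called and Pcdh20 had a log2 fold change of 1.26 (FDR 0.114). It turned Pcdha11 to -0.071 and Pcdhb12 to -0.029.

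The median log2 fold change of Pcdhb genes was 0.43 with the covariate. After the gene length trend was removed the Pcdhg value was -0.0026 and the non-clustered median 0.039. After the exon length trend was removed the Pcdha median was -0.41, the Pcdhg value -0.47 and the non-clustered median -0.19. Some log2 fold changes turned sign. With DESeq2 and with its size factors in edgeR, Pcdha11 was -0.026 and -0.026, Pcdhb17 -0.026 and -0.025, and Pcdhb12 -0.0019 and -0.0023. Without a filter Pcdha11 was -0.023 and Pcdhb17 -0.021. With the name set as a block Pcdha11 was -0.11, Pcdhb12 -0.092 and Pcdh8 -0.0091. In set 31 Pcdh18 was -0.040, and with the covariate Pcdhb2 was 0.34. Under the gene length trend Pcdha11 was -0.51, Pcdhb17 -0.0056, Pcdhgc5 -0.0026, Pcdh9 -0.025, Pcdh7 -0.47, Pcdh17 -0.32, Pcdh18 -0.0034 and Pcdh19 -0.25. Under the exon length trend Pcdha11 was -0.88, Pcdhb17 -0.18, Pcdhb12 -0.14, Pcdhgc5 -0.47, Pcdh8 -0.20, Pcdh7 -0.32, Pcdh10 -0.17, Pcdh1 -0.20, Pcdh17 -0.44, Pcdh18 -0.22, Pcdh19 -0.38 and Pcdh12 -0.038. Without both shNT 2 and shRNA 4, Pcdhb17 was -0.031, Pcdh7 -0.0015 and Pcdh18 -0.0026. Over omissions of 1 sample Pcdha11 ran from -0.16 to 0.20, Pcdhb9 from -0.020 to 0.28, Pcdhb17 from -0.092 to 0.071, Pcdhb12 from -0.18 to 0.27, Pcdh8 from -0.080 to 0.18, Pcdh7 from -0.028 to 0.12 and Pcdh17 from -0.036 to 0.16. Members near 1 CPM or below, such as Pcdh12 and Pcdhb13, are limited by depth.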
